A study of Homo sapiens with 2 samples.

Results

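Triglyceride, sterol ester and lipid droplet genes were followed on 2 expression arrays, 1 of HepG2 cells given hawk tea extract (HTE) and 1 of cells given dimethyl sulfoxide (DMSO). The 10 genes were chosen by name for their place in neutral lipid storage, with earlier results of these data known. Their array probes were found through the RefSeq transcript that each probe is annotated with. All 10 genes, with 13 probes, were found, among 23752 genes and unnamed transcripts measured above background on 1 array or both. LPIN1 was 3.81-fold and PLIN2 2.42-fold higher on the HTE array, and the other 8 genes lay within 2-fold of the DMSO array in either direction.

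HepG2 is an established line of human hepatocellular carcinoma cells with many hepatocyte traits. The control culture received DMSO, the vehicle, and the treated culture received HTE, an extract of hawk tea, which is brewed from a plant other than Camellia, both for 24 h. The sample labels give 200 μg/mL of HTE, while the text of the study names a higher dose for this experiment, so the dose is not settled here. At the higher dose the study reports some loss of HepG2 viability, whose part in the results was not tested. Each condition had 1 array (1-colour, Cy3, same slide) and no replicate. No difference below therefore has a replicate check on these arrays, no p-value is given, and array, culture and treatment cannot be told apart. The study also measured some of these genes, among them DGAT1 and PPARG, by quantitative PCR in HTE-treated HepG2 cells. It reports them as altered, and those measurements are not used here.

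Hepatocytes store surplus fatty acids as triglyceride and surplus cholesterol as cholesteryl ester in lipid droplets, a neutral core under a single phospholipid layer. Triglyceride is built by stepwise acylation of glycerol 3-phosphate, removal of the phosphate and a last acylation, and sterol O-acyltransferases make the cholesteryl esters. Coat proteins of the perilipin family shield the droplet from lipases such as PNPLA2, and the released fatty acids are oxidised or packed again into lipoproteins.

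Each array held 58717 spots that were not controls, and the software set 60.6% of those (DMSO) and 56.6% (HTE) well above background. No spot was saturated. All 16 hepatocyte markers checked were well above background on both arrays, against 3 of 7 adipocyte, 4 of 7 immune cell and 3 of 8 endothelial cell markers on each array, and 4 (DMSO) and 3 (HTE) of 8 stellate cell and fibroblast markers. Their part in the results was not tested. The median log2 ratios of these lists were 0.13, 0.32, 0.24, -0.33 and 0.083 in the same order.

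RefSeq promoter windows (GRCh38.p14) were at hand for 5 of the 10 genes, in 7 windows: 1 each for GPAM, SOAT1, PLIN2 and PNPLA2 and 3 for LPIN1. The 250 bases before the annotated start are shown for the 2 genes past 2-fold, LPIN1 (the first of its windows, chr2:11746382-11746631, plus strand) and PLIN2 (chr9:19127493-19127742, minus strand), and for SOAT1 (chr1:179293547-179293796, plus strand), the gene with the lowest ratio of the 10. Capitals mark a GC box (GGGCGG), an E box (CACGTG) or a CCAAT box (CCAAT) on either strand.
LPIN1: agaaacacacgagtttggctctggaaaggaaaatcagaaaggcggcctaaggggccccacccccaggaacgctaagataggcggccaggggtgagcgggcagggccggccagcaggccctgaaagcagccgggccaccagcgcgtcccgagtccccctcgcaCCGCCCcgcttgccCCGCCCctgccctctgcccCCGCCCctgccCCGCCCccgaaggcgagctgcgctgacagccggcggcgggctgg
PLIN2: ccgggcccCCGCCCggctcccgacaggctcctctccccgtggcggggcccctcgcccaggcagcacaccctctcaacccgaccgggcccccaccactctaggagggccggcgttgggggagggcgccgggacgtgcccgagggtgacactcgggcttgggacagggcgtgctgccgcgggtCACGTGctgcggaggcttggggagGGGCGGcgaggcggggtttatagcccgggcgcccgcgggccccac
SOAT1: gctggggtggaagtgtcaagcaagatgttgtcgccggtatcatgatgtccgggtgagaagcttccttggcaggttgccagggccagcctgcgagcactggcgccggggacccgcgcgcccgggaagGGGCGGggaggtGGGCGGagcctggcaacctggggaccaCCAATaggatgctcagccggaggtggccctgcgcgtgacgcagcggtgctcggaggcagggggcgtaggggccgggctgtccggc

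The printed LPIN1 window held 4 GC boxes within its last 88 bases, and neither an E box nor a CCAAT box. Of the LPIN1 windows not printed, 1 held 1 GC box and the other 0. The PLIN2 window held 2 GC boxes and 1 E box, whose first base lay 69 bases before the start, and the SOAT1 window held 2 GC boxes and a CCAAT box, with no E box. A GC box stood in 42.6%, an E box in 6.34% and a CCAAT box in 32.0% of the 35116 promoter windows of the same length, so the GC box is common and the E box of PLIN2 less so. Besides these, the core letters of the hypoxia response element (ACGTG, which overlaps the E box) occurred 3 times in the PLIN2 window, 2 of them within the E box on opposite strands, and in 18.5% of all windows. The sterol regulatory element letters TCACNCCAC (0.883% of all windows) and the nuclear receptor motif AGGTCA (12.1%) were found only in the window of PNPLA2 among the 7. These matches describe letters and are not evidence of binding.

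Signals are given as the log2 processed signal minus the 75th percentile of that array, so that 0 is the level of a probe at that percentile, and a log2 ratio is the HTE value minus the DMSO value. Where a gene had 2 probes, the brighter one stands for the gene (probe A), and the other (probe B) is given as well. All 13 probes were single spots, so their error is taken from 3 sources. The error model of the scanner software gave 0.20 to 0.21 on the log2 ratio for the 12 probes well above background on both arrays, other probes that are spotted repeatedly had a median SD of 0.051 (688 probes), and 2 probes of the same transcript differed by a median of 0.21, with 95% of 2618 transcripts below 0.88.

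Of the 2 enzymes read for the earlier steps of triglyceride synthesis, GPAM lay within its error and LPIN1 was higher. GPAM, the mitochondrial acyltransferase that adds the first fatty acid to glycerol 3-phosphate, read 1.94 on the DMSO array and 2.02 on the HTE array. Its log2 ratio of 0.080 was smaller than the software error of 0.20.

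LPIN1, which removes the phosphate from phosphatidate to give diacylglycerol and also acts in the nucleus as a coactivator, had the largest ratio of the 10 genes. Probe A read -0.26 on the DMSO array and 1.67 on the HTE array, from processed signals of 3359 and 11359. This is a log2 ratio of 1.93 (software error 0.20), or 3.81-fold. Probe B of the same transcript was dim: its processed signal was 62.1 on the DMSO array, too dim to be called well above background, and 228 with HTE, where it was so called. Set against the dimmest spot still called well above background in DMSO-treated cells, it was at least 3.85-fold higher (log2 bound of 1.94). Probe A of LPIN1 thus lay well past 2-fold, and spots around it on the array had a median log2 ratio of -0.010. Probe B entered only through the HTE array and had a software error of 0.41, so it is not a second measure of the size.

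The last step of triglyceride synthesis is shared by 2 unrelated acyltransferases, DGAT1 and DGAT2. DGAT1 probe A read 3.33 on the DMSO array and 3.24 on the HTE array, a log2 ratio of -0.093. DGAT1 probe B read 1.84 and 0.93, a log2 ratio of -0.91 or 1.88-fold lower. Both ratios were below 0, but that of probe A lay within its software error of 0.20 and was 0.071 with normexp background correction. The probes of DGAT1 differed by 0.81 in the log2 ratio, a gap reached by 6.49% of transcripts with 2 probes. Neither the direction by probe A nor the size of the DGAT1 difference is therefore settled. DGAT2, measured by 1 probe, read -0.077 and -0.48, a log2 ratio of -0.40 (software error 0.20), or 1.32-fold lower.

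The sterol O-acyltransferases, which esterify cholesterol at the endoplasmic reticulum, pointed in opposite directions. SOAT1, the form found in most tissues, read 0.53 on the DMSO array and -0.089 on the HTE array. Its log2 ratio of -0.62 (software error 0.20), or 1.54-fold lower, was the lowest of the 10 genes. SOAT2, the form of hepatocytes and enterocytes, read -0.79 and -0.35, a log2 ratio of 0.43 (software error 0.20), or 1.35-fold higher. Both ratios exceeded the software error and neither reached the 0.88 that bounds 95% of the gaps between probes of a transcript.

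**Figure D1:**
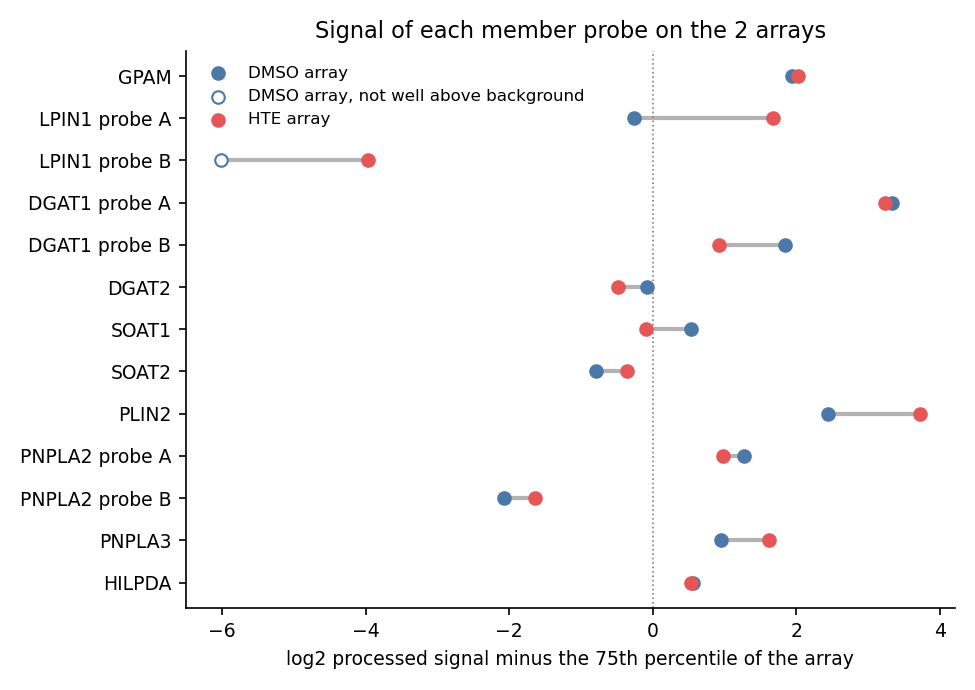
Log2 processed signal minus the 75th percentile of the array (x axis) for the 13 probes of the 10 genes (y axis), on the DMSO array (blue) and the HTE array (red), each point 1 spot; the open blue circle was not well above background. The widest steps are those of LPIN1 (probe A from -0.26 to 1.67) and PLIN2 (2.45 to 3.72).

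Among droplet proteins, PLIN2 and HILPDA differed. PLIN2, the main perilipin coat of hepatocyte droplets, read 2.45 on the DMSO array and 3.72 on the HTE array, from processed signals of 21929 and 47125. Its log2 ratio of 1.27 (software error 0.20), or 2.42-fold, was the second largest, against a median of 0.075 for the spots around it. HILPDA, a small droplet protein that inhibits PNPLA2 and is known as a hypoxia response gene, read 0.57 and 0.53. The HILPDA log2 ratio of -0.034 was smaller than the software error, and the spots around its probe had a median of 0.15.

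The lipases of the droplet gave 1 higher gene and 1 that its probes leave without a direction. PNPLA2 (adipose triglyceride lipase), which starts the breakdown of triglyceride, read 1.28 on the DMSO array and 0.98 on the HTE array with probe A, a log2 ratio of -0.29. Probe B of PNPLA2 read -2.08 and -1.64, a log2 ratio of 0.44. The PNPLA2 probes thus had opposite signs, with a gap of 0.73 that 8.40% of transcripts with 2 probes reach. PNPLA3, a droplet protein of the same family measured by 1 probe, read 0.96 and 1.63, a log2 ratio of 0.67 (software error 0.20), or 1.59-fold higher. The PNPLA3 ratio exceeded the software error but did not reach the 0.88 that bounds 95% of the gaps between probes of a transcript.

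**Figure D2:**
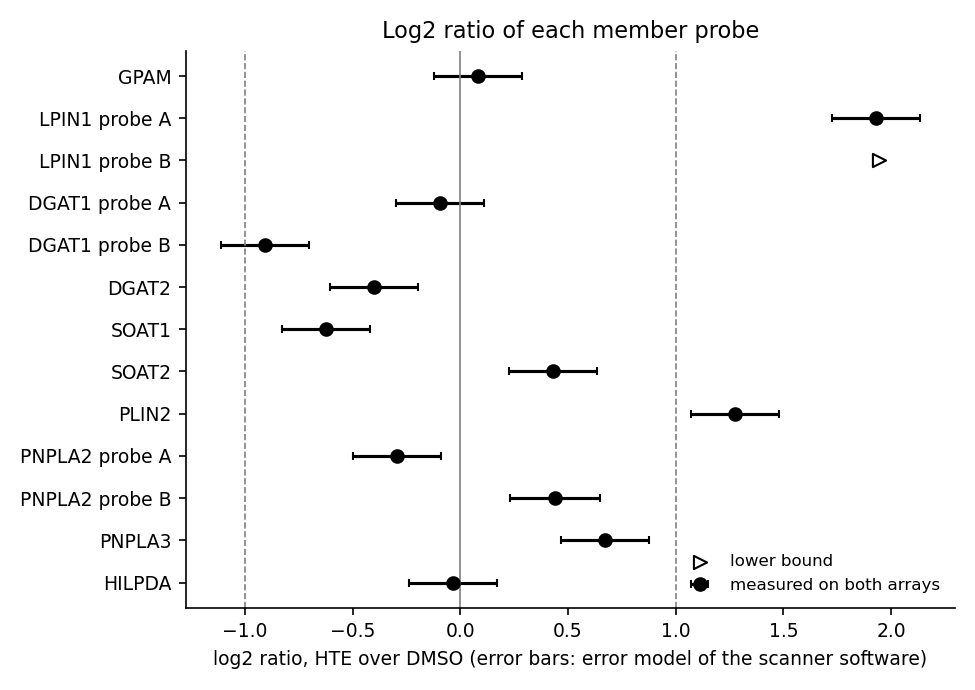
Log2 ratio of HTE over DMSO (x axis) for the 13 probes (y axis); bars are the error of the ratio from the scanner software's error model, the open triangle is a lower bound, and dashed lines mark 2-fold. LPIN1 probe A (1.93) and PLIN2 (1.27) lie right of the 2-fold line, LPIN1 probe B is at least 1.94, and the probes of PNPLA2 lie on either side of 0.

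Of the 10 genes, 2 (LPIN1 and PLIN2) were at least 2-fold higher, against 5.25% of all 23752 genes and unnamed transcripts, and 0 were at least 2-fold lower, against 3.03%. At 1.5-fold, 3 genes were higher (PNPLA3 with the former 2), against 12.4% of all, and 1 was lower (SOAT1), against 10.5%. In all, 5 genes were higher and 5 lower, with a median log2 ratio of 0.023, and the median over all genes was 0. With normexp background correction the 10 genes had a median of 0.16, against -0.011 over all genes. With the dimmest probe of each gene that median was 0.26, against 0. In the values given above the 10 genes thus centred near all genes, with LPIN1 and PLIN2 apart from the other 8. Of those 8, GPAM, DGAT1 and HILPDA had ratios within the software error on the probe that stands for the gene.

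**Figure D3:**
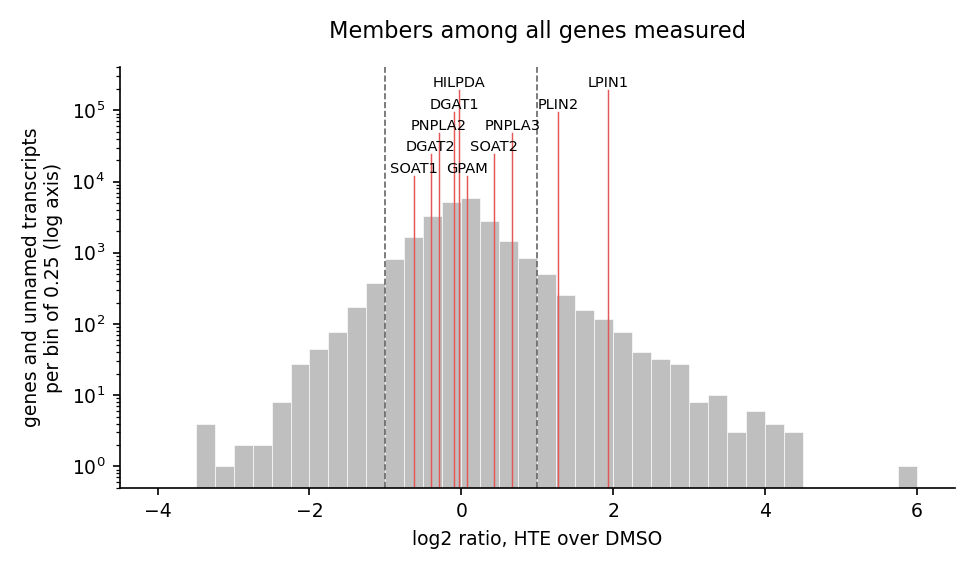
Number of genes and unnamed transcripts (y axis, log scale) in bins of 0.25 of the log2 ratio, HTE over DMSO (x axis), with red lines at the 10 genes and dashed lines at 2-fold. Of the 10 genes, 8 stand between the dashed lines and LPIN1 and PLIN2 stand to the right.

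The scaling of the arrays matters for the sign of small ratios and for the split of all genes. After scaling to the 75th percentile, 63.4% of the genes past 2-fold were higher, against 42.2% without scaling, which moved every ratio that is not a bound by -0.17. Spike-in RNA, read by the E1A probes, was brighter on the HTE array by a log2 ratio from 0.44 to 1.56 in 8 probes. Scaling to its median moved every ratio that is not a bound by -1.37 and left 0.615% of the genes past 2-fold higher. Under that scaling LPIN1 had a log2 ratio of 0.56, PLIN2 of -0.093 and PNPLA3 of -0.70, so LPIN1 alone of the 10 stayed above 0. Each of these scalings moves the ratios of the 10 genes by the same amount, so it leaves their order as it was.

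**Figure D4:**
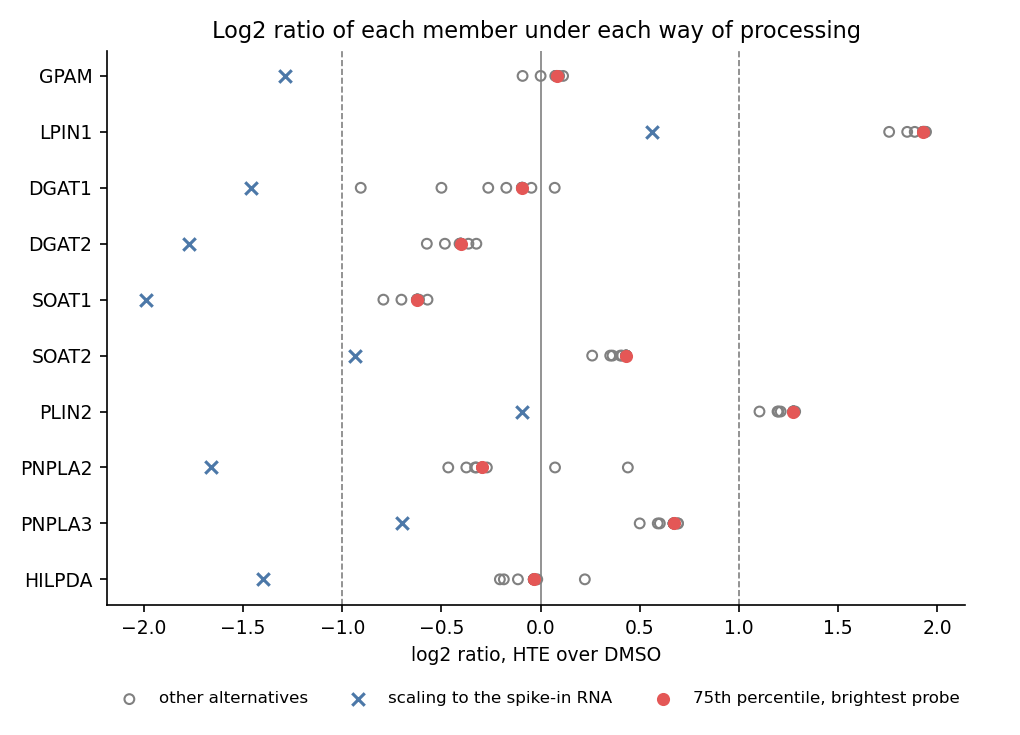
Log2 ratio of HTE over DMSO (x axis) of each of the 10 genes (y axis) under each way of processing; the red point is the value given above, open circles are the other alternatives and the cross is scaling to the spike-in RNA. LPIN1 lies between 1.76 and 1.94 and PLIN2 between 1.10 and 1.28 in all but the spike-in scaling, while GPAM, DGAT1, PNPLA2 and HILPDA have such points on both sides of 0; with that scaling SOAT2, PLIN2 and PNPLA3 are below 0 too.

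Related genes were read from 7 lists written for the same pathways, with 126 genes of which 114 were measured, 10 were not well above background on either array, and 2 had no matched probe (PLIN4 and ACSM2A). Their counts past 2-fold are to be read against the 5.25% (higher) and 3.03% (lower) of all genes. Their counts of higher and lower genes are to be read against 10849 higher and 11631 lower of all 23752. Without scaling, these were 7565 and 15235. Nothing particular to a list is drawn from these counts. With spike-in scaling all 7 list medians were below 0, between -1.40 and -0.91.

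The other 18 genes of triglyceride synthesis, all measured, split into 8 higher and 10 lower, with a median log2 ratio of -0.033 (11 higher, 7 lower and 0.065 with normexp background correction) and 2 at least 2-fold higher. MOGAT3, a monoacylglycerol acyltransferase, read -3.10 on the DMSO array and -1.74 on the HTE array, a log2 ratio of 1.36. GK, the glycerol kinase, read 0.72 and 1.83, a log2 ratio of 1.11 (1.75 with its second probe, 0.94 without scaling), and near-identical copies of GK in the genome may share its signal. GPD1L, a relative of glycerol 3-phosphate dehydrogenase, was the lowest, from 1.03 to 0.51, a log2 ratio of -0.52. LPIN2 and LPIN3, the relatives of LPIN1, had log2 ratios of -0.065 and 0.38, both within 2-fold. GPAT3 and GPAT4, the acyltransferases of the endoplasmic reticulum that do the same step as GPAM, had 0.64 and 0.58.

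Of 18 measured genes of the droplet coat and droplet formation, 14 were higher and 4 lower, with a median log2 ratio of 0.36 and 1 at least 2-fold higher (2 with the mean over probes, 3 with the dimmest probe). That gene was CIDEB, a droplet protein of hepatocytes that takes part in the lipidation of very-low-density lipoprotein, which read -0.62 on the DMSO array and 1.13 on the HTE array. Its log2 ratio of 1.74, or 3.35-fold, came close to that of LPIN1. CIDEC, a droplet fusion protein, had log2 ratios of 0.82 and 1.45 with its probes, and VPS13C, a lipid transfer protein, had 0.34 and 1.10 (dim), so each passed 2-fold only with the dimmer probe. PLIN3, a perilipin found in most tissues, had a log2 ratio of 0.65, and PLIN5, the perilipin of oxidative tissues, had 0.19. The lowest was ACSL3, the acyl-CoA synthetase of growing droplets, from 1.71 to 0.97, a log2 ratio of -0.74. Without scaling, 12 were higher and 6 lower, with a median of 0.19.

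Of 17 measured lipid hydrolysis genes, 14 were higher and 3 lower, with a median log2 ratio of 0.20 and 1 at least 2-fold higher. G0S2, an inhibitor of PNPLA2, read -5.25 on the DMSO array and -3.24 on the HTE array, a log2 ratio of 2.02 or 4.04-fold from a dim level. ABHD5, the activator of PNPLA2, had a log2 ratio of 0.30. CEL, a bile salt-dependent lipase, was the lowest, from -3.62 to -4.26, a log2 ratio of -0.64. Thus the inhibitors of PNPLA2 differed, with G0S2 higher and HILPDA within its error. With normexp the difference was smaller, with log2 ratios of 1.52 for G0S2 and 0.22 for HILPDA. Without scaling, 9 genes of this list were higher and 8 lower, with a median of 0.026.

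Of 17 measured genes of fatty acid uptake and activation, 10 were higher and 7 lower, with a median log2 ratio of 0.091, and 3 were at least 2-fold higher. FABP3, a cytosolic fatty acid carrier, went from -3.71 to -2.31, a log2 ratio of 1.40. SLC27A4, a fatty acid transport protein with acyl-CoA synthetase activity, went from -1.28 to -0.051, a log2 ratio of 1.23. ACSM3, a medium-chain acyl-CoA synthetase, went from -3.09 to -2.04, a log2 ratio of 1.05, which was below 2-fold with normexp, with quantile normalization, with scaling to the median, without scaling and after subtracting neighbouring spots (0.87 to 0.98), so that 2 genes were then past 2-fold. The lowest was CD36, a fatty acid receptor of the cell surface, from -1.48 to -2.05, a log2 ratio of -0.57. Without scaling the list had 6 higher and 11 lower genes, with a median of -0.080.

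The 16 transcription factors known to act on such genes, all measured, gave 10 higher and 6 lower, with a median log2 ratio of 0.067. Without scaling, 4 were higher and 12 lower, with a median of -0.10. PPARG, the nuclear receptor of adipocyte lipid storage, went from -0.32 to 0.74, a log2 ratio of 1.06 (1.02 with its second probe), but was below 2-fold with normexp (0.97), with scaling to the median (0.98) and without scaling (0.89). NR1H2, an oxysterol receptor, was well above background only on the HTE array, at least 2.41-fold higher by its single dim probe, although normexp background correction gave a log2 ratio of 0.72, below 2-fold. CEBPA, a factor of hepatocyte and adipocyte differentiation, went from 2.77 to 1.60, a log2 ratio of -1.17 (2.24-fold lower). FOXO1, a factor held back by insulin signalling, went from -0.25 to -1.33, a log2 ratio of -1.08. These were the 2 factors past 2-fold higher (0 with normexp) and the 2 past 2-fold lower. SREBF1, the factor that drives fatty acid and triglyceride synthesis genes, had a log2 ratio of -0.16 with its brighter probe and 0.97 with a dim one, so its direction is not settled.

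The last lists hold other targets of the factors that PLIN2 and HILPDA are known to respond to. Of 16 other hypoxia-inducible factor (HIF) targets, 13 were higher and 3 lower, with a median log2 ratio of 0.19 (8 and 8, with 0.022, without scaling). BNIP3L, a mitophagy receptor, went from 1.36 to 2.73, a log2 ratio of 1.38 (0.93 with its second probe). NDRG1, a stress response gene, went from 1.12 to 2.45, a log2 ratio of 1.33. CA9, a carbonic anhydrase of the cell surface, went from -4.42 to -3.23, a log2 ratio of 1.20 (0.95 with normexp). These 3 were past 2-fold, and the lowest was PFKFB3, which makes an activator of glycolysis, from 0.15 to -0.48, a log2 ratio of -0.63 (-1.04 with its second probe).

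Of 12 measured other targets of peroxisome proliferator-activated receptors (PPARs), 11 were higher and 1 lower, with a median log2 ratio of 0.46. FGF21, among the higher genes, was well above background only on the HTE array, so its log2 ratio of 0.90 is a bound. With only probes well above background on both arrays, 10 of 11 were higher. VNN1, a pantetheinase of the hepatocyte surface, went from -3.21 to -1.28, a log2 ratio of 1.93 or 3.81-fold. CREB3L3, a liver factor of fasting, went from 2.24 to 3.61, a log2 ratio of 1.37 or 2.59-fold. These 2 were past 2-fold (3 genes where dim probes kept their own values). The single lower gene was EHHADH, an enzyme of peroxisomal beta-oxidation, from -2.66 to -2.85, a log2 ratio of -0.19. CPT1A, which brings fatty acids into mitochondria for oxidation, had a log2 ratio of 0.72. Without scaling, 10 of the 12 were higher, with a median of 0.29.

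**Figure D5:**
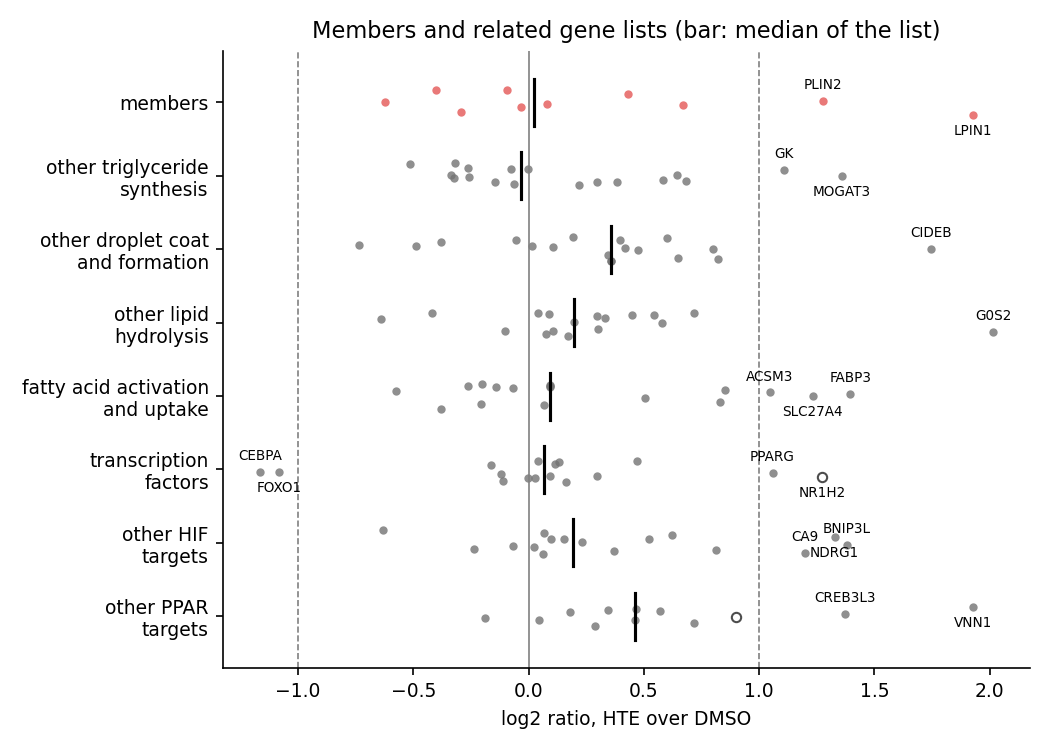
Log2 ratio of HTE over DMSO (x axis) of the 10 genes (red) and of the 7 related lists (grey, y axis), each point a gene by its brightest probe, open circles lower bounds, black bars the median of each list and dashed lines 2-fold; the points are spread vertically at random. Medians run from -0.033 for the other triglyceride synthesis genes to 0.46 for the other PPAR targets, with 0.023 for the 10 genes, and genes past 2-fold carry their names.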

How the data were processed

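RNA of HepG2 cells was hybridised to 1-colour Agilent arrays, 1 per condition. The authors deposited the intensity of each spot as given by Agilent Feature Extraction 11.5.1.1 per the file headers (the processing notes of the submitters name 10.7), background-subtracted and detrended on each array but not scaled between arrays; the study's methods name a 2-fold cutoff and no scaling. Control and outlier spots were left out, log2 was taken and the 75th percentile of each array subtracted. Replicate spots were averaged per probe. It entered if 0.5 or more of its spots passed the software's flag for signal well above background in either condition. If they passed in 1 condition, the ratio is a bound: the dim side took its own signal or the dimmest passing signal of that array, whichever was greater, and bounds under 1-fold were set to no difference. Transcript accessions were matched without version to the RefSeq gene table of GRCh38.p14 (28174 of 50599 probes); the file headers name another build, so no gene coordinates are given beside those of the promoter windows, which come from RefSeq. Precision is limited by the number of arrays.

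The genes and lists were chosen with earlier results of these data known. Named were all 10 genes with all of their probes and, of each related list, the genes past 2-fold and the highest and lowest. LPIN2, LPIN3, GPAT3, GPAT4, PLIN3, PLIN5, CIDEC, VPS13C, ABHD5, SREBF1 and CPT1A were added for their roles or second probes. FGF21 was added as a bound, and all of these were added after their values were seen. Alternatives were normexp background correction (offset 50, limma 3.58.1 in R 4.3.3), 4 other scalings, 3 treatments of dim probes, outlier spots kept, the mean or dimmest probe of a gene, thresholds of 1.5-fold and 3-fold and, chosen after seeing the data, subtraction of the median ratio of the spots up to 5 rows and columns away. Scripts ran in Python 3.11.15 with pandas 2.3.3 and numpy 2.4.6, and plots were made by matplotlib 3.10.9. The calling of genes past 2-fold was tried on a noisy copy of the DMSO array with shifted genes. In that copy no probe passed on 1 array only, so the bounds were not tested.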

Additional observations from a re-analysis of the deposited data

How the results depend on the processing

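Without replicates, a value counted as moved when it changed by more than 0.051, the median SD among replicate spots. The genes at least 2-fold higher were LPIN1 and PLIN2 under every alternative at that threshold other than spike-in scaling, with log2 ratios of 1.76 to 1.94 and 1.10 to 1.28. Spike-in scaling gave 0 higher and 6 lower of the 10 genes, a median of -1.35, and 114 higher and 18425 lower over all genes. It turned the sign of GPAM (-1.29), SOAT2 (-0.94), PNPLA3 (-0.70) and PLIN2 (-0.093) among the 10 genes, and of MOGAT3 (-0.0081), GK (-0.26), ACSM3 (-0.32), SLC27A4 (-0.14), PPARG (-0.31), CA9 (-0.17) and NDRG1 (-0.042), which follows from its shift of -1.37. The median of the 10 genes was 0.16 with normexp, -0.057 with scaling to the median, -0.15 without scaling, 0.077 with the mean over probes and 0.26 with the dimmest probe. The median over all genes was -0.011, -0.070, -0.16, 0 and 0 in the same order. DGAT1 was 0.071 and HILPDA 0.22 with normexp, and the cause was not tested. GPAM was -0.091 without scaling, which follows from the shift of -0.17. PNPLA2 was 0.073 with the mean over its probes, which have opposite signs, and 0.44 with the dimmest, which is its probe B. At 1.5-fold, 1 of the 10 genes was lower, and at 3-fold, 1 (LPIN1) was higher. Over all genes, normexp gave 825 higher and 468 lower, no filter on dim probes 2297 and 1270, 1.5-fold 2953 and 2505, and 3-fold 422 and 129. Genes at least 2-fold lower were 1209 without scaling and 1320 where dim probes kept their own values. Keeping outlier spots and the other treatments of dim probes moved none of the 10 genes, and subtracting the neighbouring spots, chosen after seeing the data, moved 4. Taking probes by gene name was not run, since the columns used here hold only transcript accessions. No paired analysis was possible because each condition had 1 array. The signal of dim probes such as LPIN1 probe B, G0S2 and NR1H2 lay close to background, which limits the precision of their ratios.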
